A study of Mus musculus with 8 samples.

Results

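Fatty acid oxidation and PGC-1 genes were examined in the hearts of mouse embryos with and without the protein deacetylase SIRT1. The set holds 40 of the 19096 genes that could be named on the array, and they were chosen as a list of known regulators, carriers and enzymes of fatty acid use. All 59 probes whose accession maps to a listed gene were kept, of 41174 probes in all. RNA came from 4 wild-type (WT) hearts and from 4 hearts labelled SIRT1 KO, a whole-body germ-line *Sirt1* knockout, so the deletion is by design in every tissue of the embryo and not in heart muscle alone. All 8 samples were untreated E18.5 hearts of the C57BL/6 strain (C57BL/6J in the study's methods) from a colony kept on a chow diet, and the embryos came from heterozygous parents. Each sample was the heart of a separate embryo according to the study's legends, and which of them were littermates is not given. The comparison asks whether RNAs for fatty acid use differ between the genotypes shortly before birth.

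Long-chain fatty acids enter heart cells through carriers, are joined to coenzyme A, pass into mitochondria as carnitine esters, and are then shortened step by step by β-oxidation. PPARα switches on many of these genes, and the coactivators PGC-1α and PGC-1β, encoded by *Ppargc1a* and *Ppargc1b*, raise its activity and that of the estrogen-related receptors. SIRT1 is known to remove acetyl groups from PGC-1α. The fetal heart relies largely on glucose and lactate, and the switch to fatty acids follows birth.

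Values are given as log2 of the background-subtracted intensity relative to the 75th percentile of the same array, so 0 is that percentile itself. Levels are compared between hearts on the same probe, apart from sums over markers and the gap between the *Cpt1b* probes. Differences are SIRT1 KO minus WT with 4 hearts in each group. They were tested with limma and the Benjamini-Hochberg adjustment over the 25624 probes that Feature Extraction marked as well above background on 4 or more arrays, and a gene with several probes is described by its brightest. Precision is limited by having only 8 arrays.

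The 4 WT arrays shared 1 slide and scan day and the 4 SIRT1 KO arrays another, so for every value given here the genotype cannot be told apart from the slide or the day of scanning. Neither probe of the targeted gene passed as lower, so SIRT1 KO is used below as the label of these hearts, and each direction rests on that label. On its brighter probe *Sirt1* was 0.54 higher in the hearts labelled SIRT1 KO (adjusted p = 0.0323 from limma) and on the other it differed by -0.11 (adjusted p = 0.589), and where these probes lie relative to the deleted part is not known here. Cardiomyocyte markers were strong in every array, with 11 of 11 tested and a summed signal of 1818 to 1962 times the 75th percentile in WT and 1930 to 2277 in SIRT1 KO, where 9 of the 11 had higher means and none passed. Liver markers, by contrast, stood out in single hearts: all 9 tested of 12 listed had higher means in SIRT1 KO, none past the threshold, and their summed signal was 11.4 to 27.7 in WT but 118 and 62.1 in SIRT1 KO replicates 1 and 4 against 18.8 and 13.4 in replicates 2 and 3. Liver also uses many of the genes described here, so values without these 2 hearts are given for some of the genes. The part of liver RNA in the results was not tested.

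Of the 40 genes, 38 were tested with 56 probes. *Acsl6*, an acyl-CoA synthetase known best from brain, and *Ucp3*, an uncoupling protein of muscle, reached the level called well above background on 0 arrays. On the brightest probe, 1 of the 38 genes passed the threshold of an adjusted p under 0.05, *Cpt1b*, where 4.63% of all 13598 genes tested did so. It was higher in SIRT1 KO, as were 3.71% of all genes, and no member passed as lower, where 0.912% did. At an unadjusted p of 0.05 there were 5 genes, against 20.4% of all genes. The genotypes did not overlap for 5 genes, against 14% of all genes, and these were *Cd36*, *Acot2* and *Hadha*, lower in SIRT1 KO (5.61% of all genes), and *Slc27a1* and *Cpt1b*, higher (8.4%). Taken in either direction, the shares of the members are near or below those over all genes.

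The fold changes were small throughout. They ran from -0.27 to 0.38 on the log2 scale with a median of -0.067, beside -0.0068 over all genes tested. For 37 of the 38 genes the 95% confidence interval lay within 0.5 of 0 on the log2 scale, the exception being *Cpt1b*, and this held for 74.7% of all genes. Over all 56 tested probes it held for 50, and for 13 of the 18 dimmer probes. These intervals do not show that the groups were equal. Means were lower in SIRT1 KO for 29 genes and higher for 9, and lower for 51.6% of all genes. That split depended on the scaling: it was 26 lower and 12 higher after quantile normalization, and 36 lower and 2 higher when arrays were centred on their medians, which moved the median of all tested probes from 0.0082 to -0.12. Centring shifts every probe alike, so the last split follows from that shift, and counted against the median of all genes 29 members were lower both before and after it, and 25 with quantiles. The split around 0 was 24 lower and 14 higher without WT replicate 1. Set against the median of all genes, the members' median was -0.060 in the first and the last of these scalings and -0.032 with quantiles, and it ran from -0.029 without SIRT1 KO replicate 2 and -0.034 without WT replicate 1 to -0.098 without SIRT1 KO replicates 1 and 4 and -0.13 with normexp background correction. The median of all genes was -0.14 after centring on medians and -0.23 with no scaling between arrays. Passes, lost calls and sign turns given below for these 2 settings carry that shift of all genes. With no scaling 16 member genes passed, beside 6351 of the 25624 probes, and not all of these genes are named below. In bulk tissue, fewer cells of a type and less RNA per cell cannot be told apart.

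**Figure D1:**
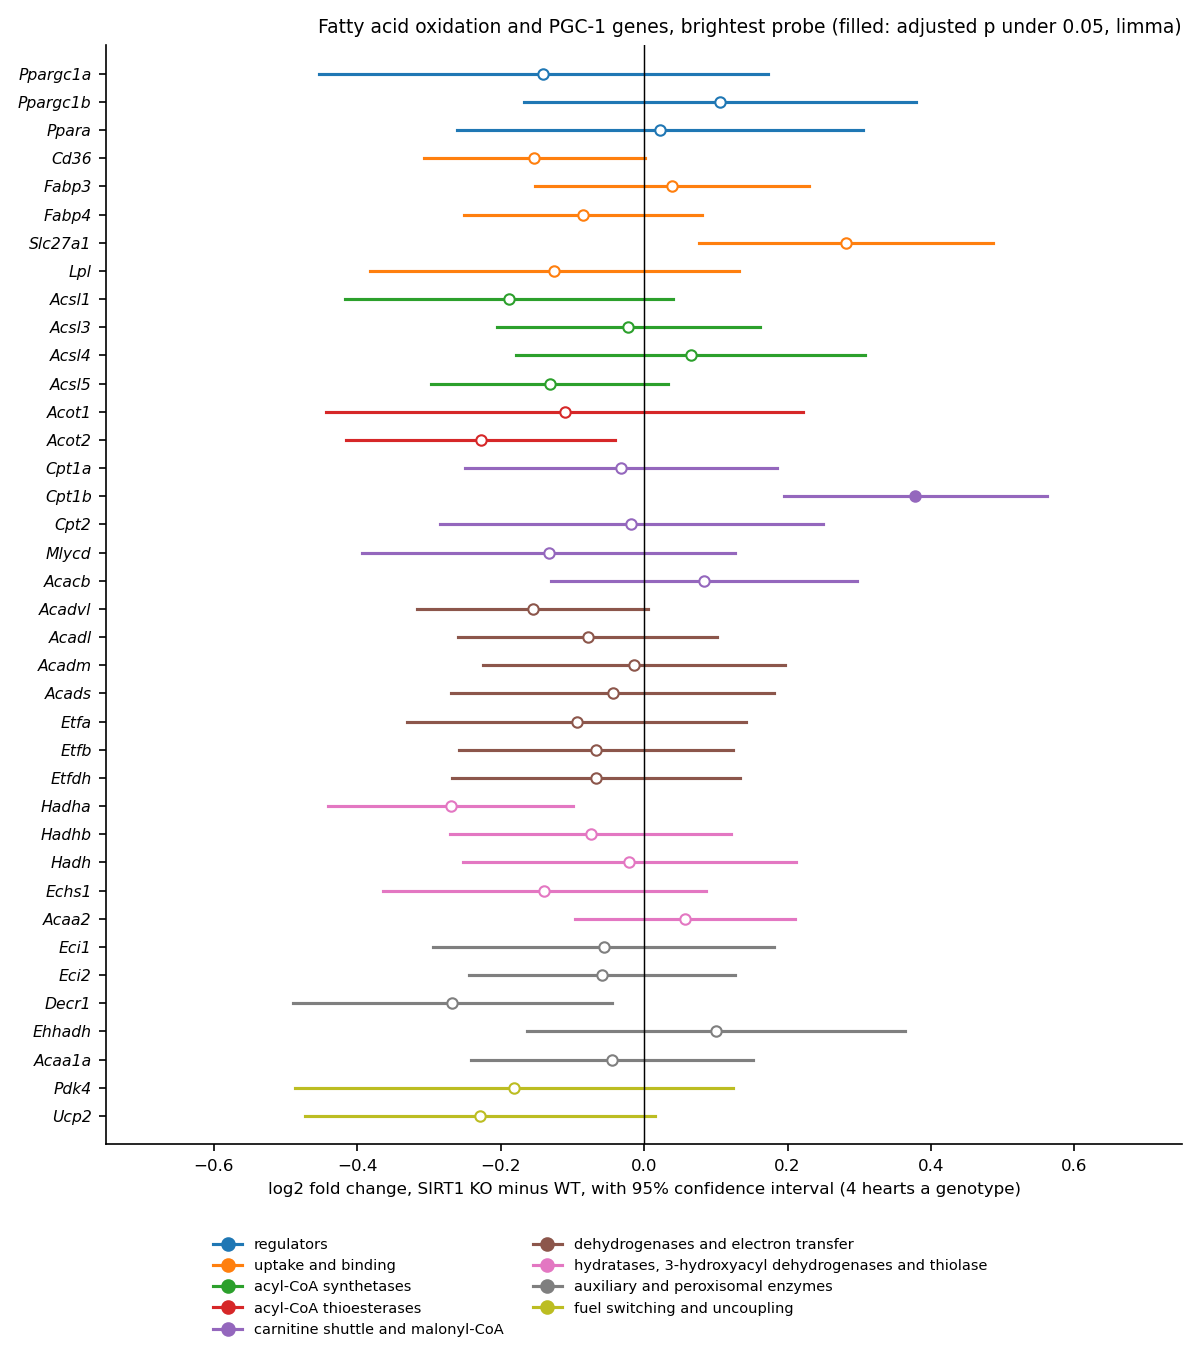
Log2 fold change (SIRT1 KO minus WT) of the brightest probe of each of the 38 tested genes, grouped by role in color. Points are limma estimates over 4 hearts a genotype (3 in WT for *Etfa*), lines are 95% confidence intervals, and *Cpt1b*, at 0.38, is the only filled point (adjusted p under 0.05); with arrays centred on their medians the median of the points moves from -0.067 to -0.20.

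The coactivators and PPARα did not differ beyond the spread between hearts. *Ppargc1a*, which encodes PGC-1α, read 3.36, 2.89, 3.24 and 3.27 in WT replicates 1 to 4 and 3.24, 2.82, 2.89 and 3.24 in the SIRT1 KO replicates. The groups overlapped, with replicate 2 the lowest in both genotypes. This amounts to -0.14 on the log2 scale (standard error 0.14, 95% interval -0.45 to 0.17, adjusted p = 0.592 from limma). Without SIRT1 KO replicates 1 and 4 *Ppargc1a* differed by -0.33 (adjusted p = 0.32 from limma), and by -0.24 to -0.066 with 1 heart left out. Its second probe was steadier, at 1.98 ± 0.016 (SD, n = 4) in WT and 1.98 ± 0.081 in SIRT1 KO, and its difference of -0.0017 had an interval of -0.16 to 0.15.

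For *Ppargc1b*, encoding PGC-1β, WT hearts gave 2.96, 2.57, 2.82 and 3.03, and SIRT1 KO hearts 3.15, 2.78, 2.88 and 2.99. Again the ranges overlapped and replicate 2 was lowest in each group. The difference was 0.11 (standard error 0.12, 95% interval -0.17 to 0.38, adjusted p = 0.652 from limma), and 0.20 and 0.021 on its other probes. Its sign turned when arrays were centred on their medians (-0.023) and without SIRT1 KO replicates 1 and 4 (-0.016). *Ppara*, the nuclear receptor, was 1.43, 1.16, 1.39 and 1.60 in WT and 1.49, 1.17, 1.37 and 1.64 in SIRT1 KO, a near repeat of the same 4 values by replicate number. Its difference of 0.022 (interval -0.26 to 0.30) was -0.11 after centring on medians and -0.13 without SIRT1 KO replicates 1 and 4.

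The stretch before the *Ppargc1a* start site is shown because this promoter is known to answer cAMP signaling. It is from RefSeq (GRCm38.p6, chr5:51567726-51567975, minus strand), 250 bases written 5′ to 3′ and ending at the start site, and capitals mark the letters TGACG, the core of a cAMP response element, on the opposite strand.
Ppargc1a: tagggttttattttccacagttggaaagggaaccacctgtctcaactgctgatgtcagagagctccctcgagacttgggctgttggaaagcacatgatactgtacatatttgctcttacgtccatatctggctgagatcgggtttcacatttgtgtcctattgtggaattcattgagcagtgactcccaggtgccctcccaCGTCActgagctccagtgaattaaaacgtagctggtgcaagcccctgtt
Windows that run from 250 bases before to 50 after a start were found for 34 of the 40 genes, 39 windows in all. Searched on both strands, TGACG was in 11 of these 39 and in 20.8% of all 32851 windows of that length. The full estrogen-related receptor element TCAAGGTCA was in 1 of 39 and in 0.423% of all. That 1 window is of *Acsl6*, which was well above background on 0 arrays. The nuclear receptor hexamer AGGTCA, which that longer motif contains, was in 8 of 39 and in 16.3%. Windows of *Acsl6* and *Ucp3*, the members not tested, are among the 8. No test was made of these shares.

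Entry of fatty acids showed 1 carrier lower and 1 higher, neither past the threshold. CD36 is the main fatty acid translocase of the heart. *Cd36* read 3.51, 3.49, 3.49 and 3.55 in WT hearts and 3.40, 3.25, 3.36 and 3.42 in SIRT1 KO hearts. Every SIRT1 KO value lay below every WT value, and the means were -0.15 apart on the log2 scale (standard error 0.068, adjusted p = 0.236 from limma). The gene passed with no scaling (-0.37, adjusted p = 0.0202), a setting that lowers all genes. *Cd36* is also an endothelial gene, and 8 of 9 endothelial markers had lower means in SIRT1 KO with none past the threshold, their summed signal being 52.2 to 57.2 in WT and 46.1 to 54.8 in SIRT1 KO; their part in the *Cd36* value was not tested.

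*Slc27a1* encodes the fatty acid transport protein FATP1. It was -0.53, -0.93, -0.78 and -0.83 in WT and -0.48, -0.49, -0.50 and -0.47 in SIRT1 KO. The SIRT1 KO hearts were nearly alike and all above WT, although WT replicate 1 came close. The difference was 0.28 (standard error 0.091, 95% interval 0.076 to 0.49, adjusted p = 0.121 from limma); without WT replicate 1 it was 0.36 and passed (adjusted p = 0.0448), and over all alternatives the adjusted p ran from 0.0448 to 0.694.

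The other 3 genes of uptake and binding overlapped between genotypes on the brightest probe. *Fabp3*, the fatty acid binding protein of heart muscle, differed by 0.039, which was -0.047 after quantile normalization and -0.089 after centring on medians. *Lpl*, the lipase that frees fatty acids from circulating lipoproteins, differed by -0.13, and by -0.19 on a dimmer probe where the genotypes did not overlap (adjusted p = 0.236); that probe passed with no scaling (0.0233). *Fabp4*, a binding protein of adipocytes and capillary endothelium, differed by -0.085 on its brightest probe, and its 2 dimmer probes stood at 0.086 and -0.28. On the last of these the genotypes did not overlap (adjusted p = 0.0938 from limma), and it passed with normexp background correction (0.0357), after centring on medians (0.0344) and with no scaling (0.0171). Adipocyte markers had higher means in SIRT1 KO for 6 of the 7 tested, of 10 listed, and none passed. Their summed signal, most of it from *Cidea*, was 10.9 to 14.6 in WT and 10.2 to 14.1 in SIRT1 KO. Without *Cidea* the sum was 2.05 to 2.21 in WT, 2.79 or more in SIRT1 KO replicates 1 to 3 and 1.93 in replicate 4. *Adipoq*, *Plin1*, *Cfd*, *Retn* and *Cidec*, named after their values were seen, were 0.25 to 0.35 higher, with SIRT1 KO replicates 1 to 3 above every WT heart. *Lep*, which encodes leptin, was well above background on 0 arrays, and the part of adipocyte RNA in the values of *Fabp4* and *Lpl* was not tested.

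Activation to acyl-CoA is the work of the acyl-CoA synthetases, of which 4 of 5 were tested, 1 with a higher mean and 3 with lower means, and none passed. ACSL1 is the main long-chain synthetase of the heart. On its brightest probe *Acsl1* was 5.67, 5.33, 5.56 and 5.46 in WT and 5.28, 5.15, 5.37 and 5.47 in SIRT1 KO, overlapping through SIRT1 KO replicates 3 and 4. The log2 fold change was -0.19 (adjusted p = 0.318 from limma). Both dimmer *Acsl1* probes were lower in every SIRT1 KO heart than in any WT heart. One read 1.47, 1.02, 1.20 and 1.23 in WT and 0.95, 0.62, 0.90 and 0.84 in SIRT1 KO, -0.40 apart on average (standard error 0.11, adjusted p = 0.082 from limma), and the other differed by -0.26 (adjusted p = 0.123). These 3 probes had 1 sign and unequal sizes. None passed in this fit, but the probe at -0.40 passed with normexp background correction (adjusted p = 0.0419), both dimmer probes passed after centring on medians (adjusted p = 0.0379 and 0.0413), and all 3 passed with no scaling.

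*Acsl3* and *Acsl4*, whose enzymes serve lipid droplets and arachidonate, differed by -0.022 and 0.065, and *Acsl5*, of mitochondria and endoplasmic reticulum, by -0.13. The sign of *Acsl3* turned with quantile normalization (0.00040) and that of *Acsl4* after centring on medians (-0.064). The thioesterases split acyl-CoA back into free acid. *Acot2*, the mitochondrial one, was -0.27, -0.43, -0.31 and -0.49 in WT and -0.55, -0.59, -0.74 and -0.54 in SIRT1 KO. All 4 SIRT1 KO hearts were below all WT hearts, and the nearest pair lay close together. The difference was -0.23 (standard error 0.083, adjusted p = 0.158 from limma); it passed after centring on medians (-0.36, adjusted p = 0.0387) and with no scaling (-0.45, adjusted p = 0.0306). *Acot1*, the cytosolic enzyme, differed by -0.11 with overlapping groups. *Acot1* and *Acot2* are near-identical neighbors, so a probe may take up RNA of both.

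*Cpt1b* was the only gene of the set past the threshold, on 1 of its 2 probes. CPT1B is the muscle form of carnitine palmitoyltransferase 1, the malonyl-CoA-sensitive gate for long-chain fatty acids into mitochondria. On the brightest probe (A_51_P232913) WT hearts read 4.08, 3.85, 3.94 and 3.96 and SIRT1 KO hearts 4.43, 4.41, 4.26 and 4.25. Every SIRT1 KO heart was above every WT heart. The rise was 0.38 on the log2 scale (standard error 0.081), a fold of 1.30 with a 95% interval of 1.14 to 1.48 (adjusted p = 0.033 from limma). The exact two-sided permutation test gave 0.0286, the smallest value that 4 against 4 hearts allow.

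The second *Cpt1b* probe (A_52_P625508) was 2.77, 2.68, 2.75 and 2.72 in WT and 2.60, 2.70 and 2.78 in SIRT1 KO replicates 2, 3 and 4, since the spot of replicate 1 was marked as an outlier and dropped. These groups overlapped, with a difference of -0.037 (standard error 0.078, 95% interval -0.22 to 0.14, adjusted p = 0.818 from limma). The gap between the 2 probes within an array was 1.23 ± 0.066 (SD, n = 4) in WT and 1.61 ± 0.17 (SD, n = 3) in SIRT1 KO, given as a description with no test, since it was looked at because the probes disagreed. *Cpt1b* lies beside *Chkb*, which encodes choline kinase beta, and a readthrough transcript of both is annotated (Gm44502). The *Chkb* probes differed by 0.16 (adjusted p = 0.447) and -0.020 (adjusted p = 0.952). Which transcripts each *Cpt1b* probe detects was not tested. Muscle markers are given beside it: in the cardiomyocyte sum SIRT1 KO replicates 1 to 3 lay above every WT heart and replicate 4 inside the WT range, with 0 of 11 past the threshold, and of 9 skeletal muscle markers 6 were tested, 4 with higher and 2 with lower means, with a summed signal of 129.8 to 159 in WT and 134 to 165 in SIRT1 KO. One of these passed, *Myog*, a myogenic regulator, 0.52 higher (adjusted p = 0.029 from limma, where 4.63% of all genes passed), and *Myf5*, another, was well above background on 0 arrays. Their part in the *Cpt1b* value was not tested.

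The *Cpt1b* call was a narrow one. It was held in 6 of 18 alternative settings, with adjusted p from 0.00893 to 0.299. It was lost, among others, after centring on medians (0.25, adjusted p = 0.0833), without SIRT1 KO replicates 1 and 4 (0.37, adjusted p = 0.132) and with the methods' analysis of variance (adjusted p = 0.0548). With 1 heart left out the difference stayed between 0.34 and 0.42; the call was lost without WT replicate 2 (adjusted p = 0.0886), 3 (0.0952) or 4 (0.0809) and without SIRT1 KO replicate 1 (0.091) or 2 (0.0945).

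The liver form of the gate and the enzyme behind it gave differences close to 0. *Cpt1a* was 1.18, 0.80, 0.91 and 0.92 in WT and 1.06, 0.87, 0.85 and 0.90 in SIRT1 KO. These ranges overlapped almost fully (difference -0.032, standard error 0.096, 95% interval -0.25 to 0.19, adjusted p = 0.877 from limma). A dimmer *Cpt1a* probe differed by -0.20 with an adjusted p of 0.245. *Cpt2*, whose enzyme returns acyl groups to coenzyme A on the matrix side, read 4.68, 4.25, 4.43 and 4.28 in WT and 4.47, 4.39, 4.54 and 4.18 in SIRT1 KO. SIRT1 KO replicate 4 was the lowest of the 8 hearts and WT replicate 1 the highest. The difference of -0.018 had an interval of -0.28 to 0.25, and its sign turned with quantile normalization (0.021).

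Malonyl-CoA, which blocks CPT1, is made by acetyl-CoA carboxylase 2 and removed by malonyl-CoA decarboxylase. The carboxylase gene *Acacb* differed by 0.084 on its brightest probe (-0.045 after centring on medians) and by 0.34 on a dimmer one, where the genotypes did not overlap (adjusted p = 0.103 from limma). The decarboxylase gene *Mlycd* differed by -0.13 (adjusted p = 0.538). Neither passed the threshold.

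The upstream stretch of *Cpt1a* is shown as the one CPT1 window held by the table. It lies at chr19:3323051-3323300 on the plus strand of GRCm38.p6 (RefSeq), its 250 bases end at the start site, and capitals mark AGGTCA, read on the opposite strand, and the CCAAT box.
Cpt1a: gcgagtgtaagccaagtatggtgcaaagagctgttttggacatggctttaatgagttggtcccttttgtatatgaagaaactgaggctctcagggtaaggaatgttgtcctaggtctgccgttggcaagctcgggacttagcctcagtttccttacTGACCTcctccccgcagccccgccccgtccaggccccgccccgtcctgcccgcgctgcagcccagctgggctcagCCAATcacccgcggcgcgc
CCAAT was in 21 of the members' 39 windows and in 37.4% of all windows. These matches describe letters and not bound sites.

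**Figure D2:**
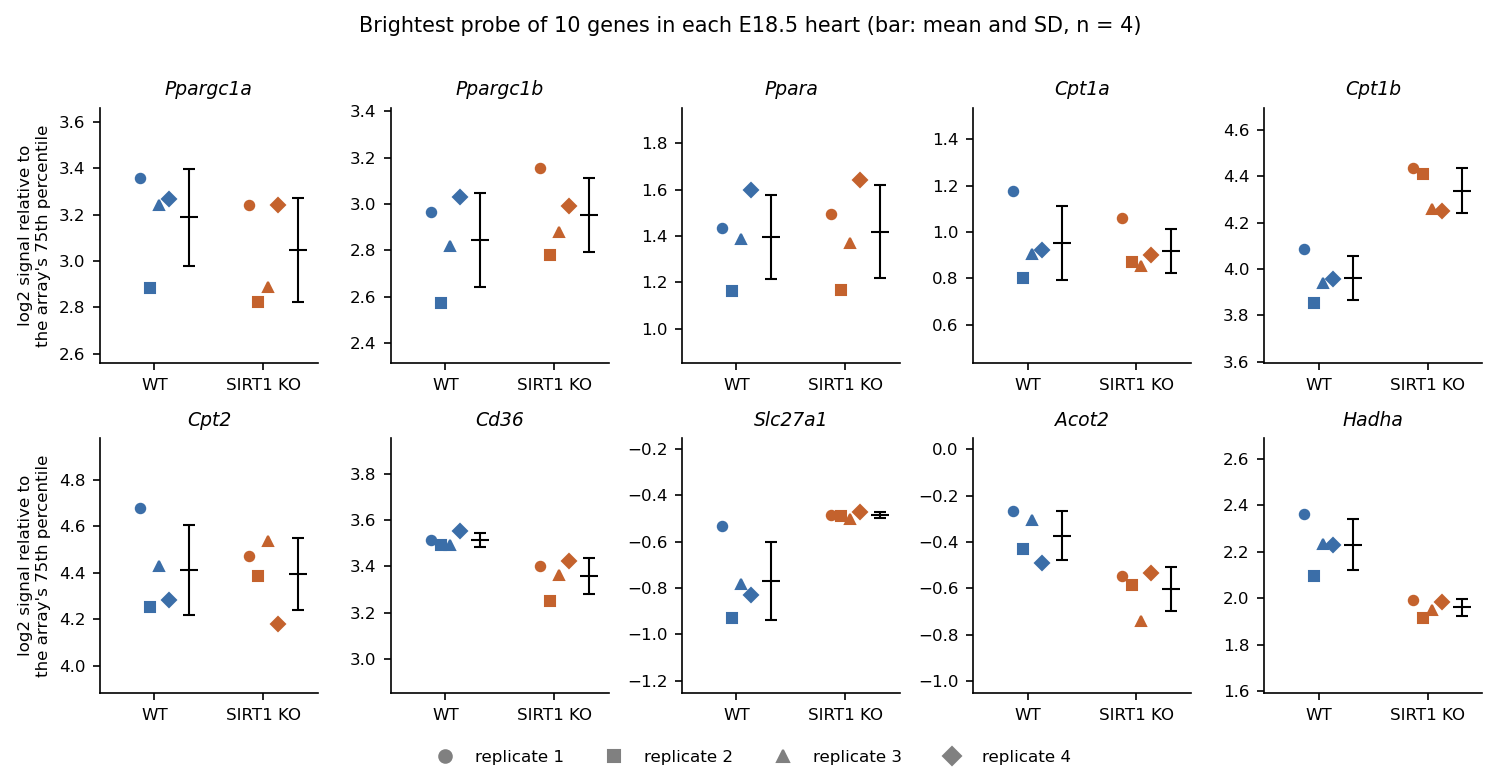
Log2 signal relative to the array's 75th percentile for 10 genes, 1 panel a gene with the same height of scale; each point is 1 heart, marker shapes are replicate numbers, and the bar is the mean ± SD (n = 4). The genotypes do not overlap for *Cpt1b*, *Cd36*, *Slc27a1*, *Acot2* and *Hadha*, and they overlap for *Ppargc1a*, *Ppargc1b*, *Ppara*, *Cpt1a* and *Cpt2*.

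The dehydrogenases that start each β-oxidation cycle, and the flavoproteins that carry their electrons to the respiratory chain, gave no gene past the threshold (smallest adjusted p = 0.248 from limma). The 7 means were lower in SIRT1 KO by -0.014 to -0.16, beside 51.6% of all genes with lower means, and every interval reached 0. The sign turned for *Acadm* with quantile normalization (0.017), and leaving out 1 heart took *Acadm* to 0.028 and *Acads* to 0.019. The other 5 genes kept their sign in all alternatives run, and each passed as lower in 1 of them, with no scaling (adjusted p from 0.0188 to 0.0453), a setting that lowers all genes. *Acadvl*, for very long chains, was lowest in the comparison at -0.16 (standard error 0.071, 95% interval -0.32 to 0.00585), with 6.31, 6.25, 6.40 and 6.33 in WT and 6.12, 6.20, 6.25 and 6.09 in SIRT1 KO. Its groups met at WT replicate 2 and SIRT1 KO replicate 3. *Acadl*, *Acadm* and *Acads*, for long, medium and short chains, differed by -0.079, -0.014 and -0.044. *Etfa* and *Etfb*, the subunits of electron transfer flavoprotein, differed by -0.094 and -0.067, the former without WT replicate 4, whose spot was marked as an outlier. *Etfdh*, the dehydrogenase that passes these electrons to ubiquinone, differed by -0.067 and by -0.045 on a dimmer probe.

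The later steps of the cycle include the mitochondrial trifunctional protein, whose α subunit (*Hadha*) hydrates and oxidizes long chains and whose β subunit (*Hadhb*) cleaves them. *Hadha* read 2.36, 2.10, 2.23 and 2.23 in WT and 1.99, 1.92, 1.95 and 1.99 in SIRT1 KO. All SIRT1 KO hearts were below all WT hearts. The difference was -0.27 (standard error 0.076, 95% interval -0.44 to -0.099) and missed the threshold (adjusted p = 0.0809 from limma, exact permutation p = 0.0286). It passed with normexp background correction (-0.36, adjusted p = 0.0275). It also passed after centring on medians (-0.40, adjusted p = 0.0288) and with no scaling (-0.49, adjusted p = 0.0154), settings that lower all genes. With 1 heart left out it was -0.31 to -0.23 with adjusted p from 0.0757 to 0.192.

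*Hadhb* did not share that separation. It was 5.25, 5.36, 5.12 and 5.32 in WT and 5.11, 5.09, 5.34 and 5.21 in SIRT1 KO, with overlapping groups. The difference was -0.075 (standard error 0.087, 95% interval -0.27 to 0.12, adjusted p = 0.657 from limma). Whether the 2 genes differ from each other in response was not tested. Both are read outward from 1 stretch of chromosome 5, and it is shown for that reason. The window is chr5:30154981-30155230 of GRCm38.p6 (RefSeq), minus strand, 250 bases before the *Hadha* start, and capitals mark the 228 bases that also lie in the *Hadhb* window, chr5:30155003-30155302 on the plus strand.
Hadha: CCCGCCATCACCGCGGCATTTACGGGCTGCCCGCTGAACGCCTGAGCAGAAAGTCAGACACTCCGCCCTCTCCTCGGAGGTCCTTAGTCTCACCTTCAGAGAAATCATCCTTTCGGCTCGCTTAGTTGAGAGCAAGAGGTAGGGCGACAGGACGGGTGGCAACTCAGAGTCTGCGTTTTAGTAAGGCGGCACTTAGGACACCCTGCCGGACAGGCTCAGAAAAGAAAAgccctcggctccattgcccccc
The short-chain enzymes of these steps overlapped between genotypes. *Hadh*, the 3-hydroxyacyl-CoA dehydrogenase, differed by -0.020 (0.0065 with quantile normalization) and *Echs1*, the enoyl-CoA hydratase, by -0.14. The thiolase gene *Acaa2* differed by 0.057 and by -0.071 after centring on medians.

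Auxiliary enzymes deal with double bonds and with peroxisomal oxidation, and none of the 5 passed. *Decr1*, the 2,4-dienoyl-CoA reductase needed for polyunsaturated acids, read -0.75, -0.74, -0.68 and -0.94 in WT and -0.96, -1.19, -1.16 and -0.87 in SIRT1 KO. The groups overlapped only through WT replicate 4 and SIRT1 KO replicate 4. The difference was -0.27 (standard error 0.099, 95% interval -0.49 to -0.044, adjusted p = 0.164 from limma), and a dimmer probe gave -0.31 (adjusted p = 0.227). The isomerases *Eci1* and *Eci2* differed by -0.057 and -0.059. *Ehhadh*, the peroxisomal bifunctional enzyme, differed by 0.10 (-0.028 after centring on medians), and *Acaa1a*, the peroxisomal thiolase, by -0.045.

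Fuel switching and uncoupling were represented by 2 tested genes. *Pdk4* encodes the kinase that shuts pyruvate dehydrogenase and spares glucose. It was 1.61, 1.37, 1.37 and 1.34 in WT and 1.21, 1.24, 0.93 and 1.59 in SIRT1 KO. WT replicate 1 and SIRT1 KO replicate 4 were the high hearts, and the groups overlapped (-0.18, standard error 0.14, 95% interval -0.49 to 0.12, adjusted p = 0.473 from limma). *Ucp2*, an inner-membrane carrier of the uncoupling protein family, differed by -0.23 (adjusted p = 0.26), and by -0.032 and -0.27 on its dimmer probes, the last with an interval of -1.75 to 1.21.

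Where a gene had several tested probes, those other probes added no gene past the threshold. Over all 56 probes, 1 passed, where 4.91% of all probes did, 3.98% as higher and 0.921% as lower. At an unadjusted p of 0.05 there were 10 of the 56, against 21.5% of all probes. The genotypes did not overlap on 10 of the 56 (13.8% of all probes), 7 of them lower in SIRT1 KO (5.11%) and 3 higher (8.64%), and the 5 beyond the brightest probes belonged to *Acsl1* (2 probes), *Fabp4*, *Lpl* and *Acacb*. Within a gene the signs differed between probes for *Cpt1b*, *Fabp4*, *Acsl4* and *Acaa1a* and were alike for the others.

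**Figure D3:**
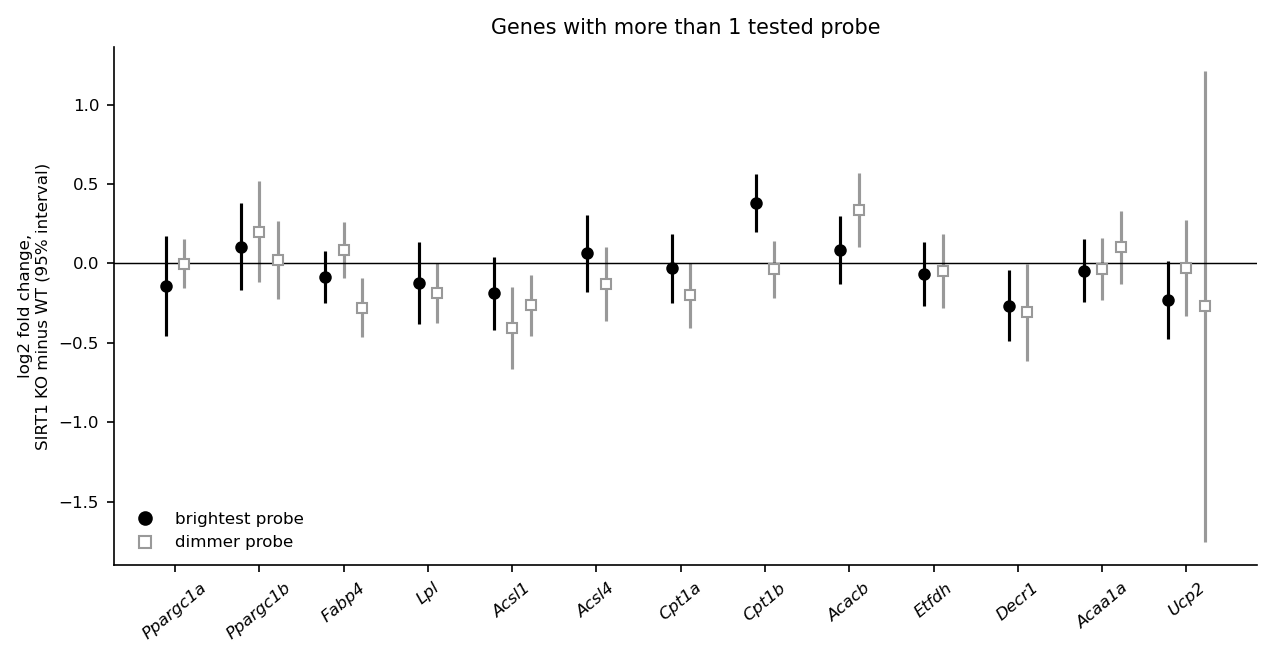
Log2 fold change (SIRT1 KO minus WT) with 95% confidence intervals for every tested probe of the 13 genes that have more than 1; filled circles are the brightest probe and open squares the dimmer ones. The *Cpt1b* probes lie at 0.38 and -0.037, the *Acsl1* probes at -0.19, -0.40 and -0.26, and the dimmest *Ucp2* probe has the widest interval.

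Hearts of 1 genotype differed from each other as well. Each gene was set against its WT mean, and the median over the tested genes was 0.073, -0.078, 0.011 and -0.0038 in WT replicates 1 to 4 and -0.0055, -0.15, -0.018 and -0.082 in SIRT1 KO replicates 1 to 4. WT replicate 2 and SIRT1 KO replicate 2 were the low hearts of their groups, and the ranges overlapped. Between hearts of the same number, SIRT1 KO minus WT was -0.079, -0.069, -0.030 and -0.078, though the numbers were not taken as pairs. SIRT1 KO replicate 2 had 33 of 38 genes below the WT mean, WT replicate 2 had 29 and WT replicate 1 had 8. The median of the within-genotype SDs was 0.13 on the log2 scale for these genes and 0.14 for all genes tested.

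**Figure D4:**
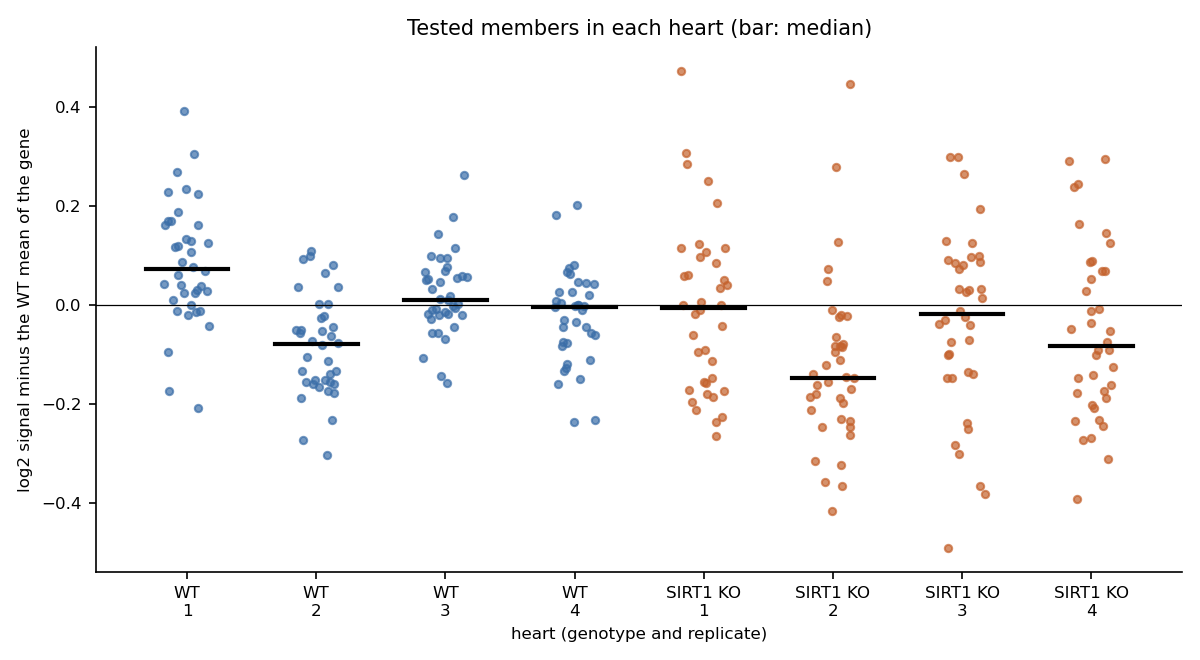
Log2 signal of each tested gene minus its own WT mean, in each of the 8 hearts; each point is 1 gene and the bar is the median of the heart. Medians run from -0.078 to 0.073 in WT and from -0.15 to -0.0055 in SIRT1 KO.

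Genes close to this set gave few calls as well. A list of 62 further genes of fatty acid handling had 54 tested, 23 with higher and 31 with lower means, a median of -0.050, and 2 past the threshold. *Cpt1c*, the CPT1 form best known from neurons, was -2.65, -2.55, -2.58 and -2.56 in WT and -2.33, -2.05, -2.32 and -2.21 in SIRT1 KO. It rose by 0.35 on the log2 scale (standard error 0.082, adjusted p = 0.043 from limma), and 3 of 18 alternatives held the call. Without SIRT1 KO replicates 1 and 4, the hearts with the most liver signal, it was 0.39 and not past the threshold (adjusted p = 0.121). Only the brighter of the 2 *Cpt1c* probes is given. *Hacl1*, whose enzyme shortens 2-hydroxy and branched acids in peroxisomes, was -4.91, -5.05, -4.85 and -5.86 in WT and -3.70, -3.98, -4.19 and -4.21 in SIRT1 KO. Each *Hacl1* value in SIRT1 KO was above each WT value; WT was well above background on 3 of 4 arrays, and the rise was 1.14 (standard error 0.22, adjusted p = 0.0229 from limma), kept by 11 of 17 alternatives. Without SIRT1 KO replicates 1 and 4, the former of which had its highest value, *Hacl1* differed by 1.08 and lost the call (adjusted p = 0.117).

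Partners and targets of PGC-1 made up a list of 61 genes, with 57 tested, 27 higher, 30 lower, a median of -0.020 and 2 past the threshold, both lower. *Fndc5*, which encodes the membrane protein from which irisin is cut, had the lower level in all SIRT1 KO hearts. It read 4.67, 4.46, 4.47 and 4.46 in WT and 3.71, 3.65, 3.67 and 3.84 in SIRT1 KO. The fall of -0.80 on the log2 scale (standard error 0.081) is 0.575 of the WT level with a 95% interval of 0.507 to 0.653 (adjusted p = 0.00182 from limma), and it held the call in 18 of 18 alternatives (adjusted p from 0.000331 to 0.0139). Only the brighter of the 2 *Fndc5* probes is given. *Tfb1m*, a methyltransferase of mitochondrial ribosomal RNA, was 2.02, 1.78, 1.95 and 2.02 in WT and 1.67, 1.55, 1.60 and 1.56 in SIRT1 KO. The groups stood apart by -0.35 (standard error 0.079, adjusted p = 0.0382 from limma), and 7 of 18 alternatives held the call, which was lost without SIRT1 KO replicates 1 and 4 (-0.37, adjusted p = 0.135). The share of calls was 3.70% in the first list, both higher (3.71% of all genes), and 3.51% in the second, both lower (0.912% of all genes), beside 4.63% of all genes in either direction.

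**Figure D5:**
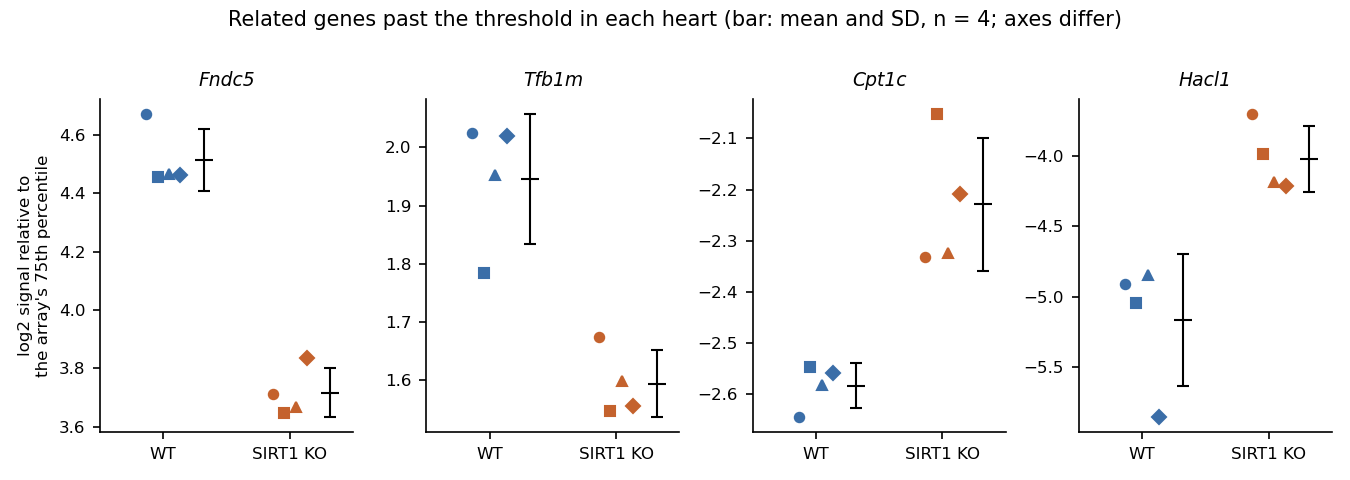
Log2 signal relative to the array's 75th percentile for the 4 genes of the 2 further lists that passed the threshold, 1 panel a gene with its own scale; each point is 1 heart and the bar is the mean ± SD (n = 4). The genotypes do not overlap in any panel, with *Fndc5* and *Tfb1m* lower and *Cpt1c* and *Hacl1* higher in SIRT1 KO.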

How the data were processed

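Total RNA of 8 E18.5 hearts, 4 of each genotype, was put on one-color Agilent arrays of the mouse genome. The authors deposited the intensity of each spot as Feature Extraction wrote it (12 per the labels, 12.0.0.7 in the headers), background-subtracted and not scaled between arrays; their table of the whole series equals it in 100% of spots. Here log2 of the processed signal minus each array's 75th percentile (939 to 1033 intensity units in WT, 777 to 906 in SIRT1 KO) was taken, control and outlier spots were left out, and spots of a probe were averaged. No spot was saturated, and 24497 to 26747 probes per array were well above background. Accessions named 28223 probes (68.5%) through RefSeq tables of GRCm38.p6. Probes were tested with R 4.3.3 and limma 3.58.1 (functions lmFit and eBayes, genotype as the only factor) and Benjamini-Hochberg adjustment at 0.05; single genes also had the exact permutation test. Tables and plots used Python 3.11.15 and matplotlib 3.10.9.

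The methods' analysis of variance was an alternative, beside background correction, scaling, filter, block, probe choice and each array left out. The members and lists were chosen with earlier results of these data known. Genes with values per heart are the PGC-1, *Ppara*, CPT1 and *Cpt2* genes, those past the threshold or without overlap on the brightest probe, and *Acsl1*, *Acadvl*, *Hadhb*, *Decr1* and *Pdk4*, added after their values were seen; of the other lists, genes past the threshold are named. On simulated arrays (25544 probes, 200 changed by 1 on the log2 scale), the fit recovered 82.5% of changed probes. Unchanged probes made up 3.51% of what it called. A change of 1 is larger than any difference of the members on the brightest probe (-0.27 to 0.38). Recovery at those smaller sizes was not tested, so the 82.5% does not apply to them.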

Additional observations from a re-analysis of the deposited data

Results flagged for a closer look

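*Pdk4* in WT replicate 1 read 1.61 on the log2 scale, against 1.34, 1.37 and 1.37 in the other WT hearts, a gap above Dixon's 95% critical value for 4 samples. *Fndc5* in WT replicate 1 read 4.67, against 4.46, 4.46 and 4.47, by the same criterion. These were 2 of 83 groups examined, and chance alone marks about 1 in 20 groups.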

How the results depend on the processing

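Over 18 alternatives at most, not counting the series table that equals the input, the 38 member genes gave 683 values, of which 607 kept their direction and their side of the threshold, 44 turned sign, 20 newly passed and 12 no longer did. Background correction by normexp on the median signal was added after seeing the data. The mean signal that the planned version needs was not in the columns used, so that version was not run. The version run called 2572 of the 25624 probes tested, against 1257, with 4 of the 56 member probes, 2 member genes and 4 genes of the PGC-1 list. Quantile normalization called 1 related gene. Median scaling called 1791 of the 25624 probes, with 5 of the 56 member probes, 2 member genes and 5 PGC-1 list genes. It put the members' median at -0.20. With no scaling 6351 of the 25624 probes and 22 of the 56 member probes were called. So were 16 member genes, 21 related genes and 14 PGC-1 list genes, and the members' median was -0.29. Shares of calls over all genes were not worked out for these settings. With no filter on dim probes there were 0 member probes, 0 member genes, 0 related genes and 1 PGC-1 list gene. Probes well above background on all 8 arrays gave 1 related gene. The methods' analysis of variance called 550 probes, 0 member probes, 0 member genes and 0 related genes; 10 member probes had an unadjusted p under 0.05 in limma. Leaving out SIRT1 KO replicates 1 and 4 (added after seeing the data) called 649 probes, 0 member probes, 0 member genes, 0 related genes and 1 PGC-1 list gene. The mean of a gene's probes called 0 member genes. With 1 array left out, calls ran from 660 to 1827 over all probes, 0 to 2 member probes, 0 to 2 member genes, 0 to 4 related genes and 1 to 4 PGC-1 list genes, and the members' median from -0.089 to -0.036. The cause of these moves was not tested.

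With the replicate number as a block, 1 member probe (a dimmer *Acsl1* probe, -0.40, adjusted p = 0.0407, not called without the block), 0 member genes, 1 related gene and 1 PGC-1 list gene were called, and *Cpt1b* kept 0.38 with an adjusted p of 0.0554. Deviations of same-numbered samples correlated at 0.20, 0.21, 0.056 and 0.14 for numbers 1 to 4, so 1 pair was below 0.1 and the samples were not taken as paired. The series' design text counts 4 pairs of hearts without saying what a pair shares or that the number marks it, and every sample correlated best with its own number. Between same-numbered hearts the members' medians differed by -0.079, -0.069, -0.030 and -0.078, SIRT1 KO minus WT.

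Signs turned as follows on the log2 scale. With quantile normalization *Fabp3* was -0.047, *Acsl3* 0.00040, *Cpt2* 0.021, *Acadm* 0.017 and *Hadh* 0.0065. With median scaling, and with none, *Ppargc1b* was -0.023 and -0.11, *Ppara* -0.11 and -0.20, *Fabp3* -0.089 and -0.18, *Acsl4* -0.064 and -0.15, *Acacb* -0.045 and -0.14, *Acaa2* -0.071 and -0.16, and *Ehhadh* -0.028 and -0.12. These settings lowered all genes (their median was -0.0068, -0.14 with median scaling and -0.23 with none), so these turns follow from that shift and do not bear on the stability of single genes. Without SIRT1 KO replicates 1 and 4, *Ppargc1b* was -0.016, *Ppara* -0.13, *Acsl3* 0.0065 and *Cpt2* 0.051. By the mean of a gene's probes *Acsl4* was -0.033 and *Acaa1a* 0.0063. With 1 array left out, *Ppara* ran from -0.055 to 0.11, *Fabp3* from -0.013 to 0.081, *Acsl3* from -0.080 to 0.016, *Acot1* from -0.19 to 0.020, *Cpt1a* from -0.082 to 0.043, *Cpt2* from -0.071 to 0.072, *Acadm* from -0.060 to 0.028, *Acads* from -0.11 to 0.019, *Hadh* from -0.096 to 0.034 and *Eci1* from -0.13 to 0.020.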
